A study of Homo sapiens with 12 samples.

Results

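Non-coding host genes of small nucleolar RNAs are transcribed into RNAs that are not translated into a conserved protein and whose introns carry small nucleolar RNAs. The 7 genes described here are GAS5, SNHG1, SNHG5, SNHG6, SNHG7, SNHG8 and SNHG12, chosen by name as hosts with promoters of the terminal oligopyrimidine kind. Every probe annotated to one of these symbols was taken. SNHG1, SNHG6, SNHG8 and SNHG12 had 1 probe each, SNHG5 had 2 and SNHG7 had 3, so that 9 of 47231 probes represented 6 of the 7 genes, among 11724 genes named on the array. No probe was named GAS5 in the annotation used here, and its level is not reported. All 9 probes passed the filter for detection and were among the 14804 probes tested.

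The arrays measured total RNA of Caco-2 cells, a human line from a colonic adenocarcinoma, after transfection of small interfering RNA (siRNA) with a lipid reagent. The 12 arrays form 4 groups of 3. ZNF658 siRNA 1 (Ambion) was set against control siRNA 1, the negative control of that supplier, and ZNF658 siRNA 2 (Dharmacon, a pool of several siRNAs) against control siRNA 2, a non-targeting siRNA of that supplier. ZNF658 is a zinc finger protein that binds the zinc transcriptional regulatory element (ZTRE) in promoters. All groups thus carry a transfected siRNA, and no untransfected cells are among them. The labels do not say that replicates were separate cultures, so P values measure the spread between these arrays only. No probe was named ZNF658, so the depletion of its mRNA was not read from these arrays.

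After splicing, the introns of a host gene are debranched and trimmed, and the small nucleolar RNAs released from them join proteins to form the particles that guide 2′-O-methylation and pseudouridylation of ribosomal RNA. The spliced host RNA reaches the cytoplasm, where several of these RNAs are bound by ribosomes on short open reading frames and removed by nonsense-mediated decay. Transcripts of the terminal oligopyrimidine (TOP) kind start at a cytosine within a run of pyrimidines, and on mRNAs of ribosomal proteins and translation factors that run places translation under the control of mTOR and of the protein LARP1.

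The start sites are shown because the pyrimidine run is the sequence by which the genes were grouped. Each line gives 10 bases before the annotated start and 40 bases from it, from RefSeq on GRCh38.p14, read 5′ to 3′ on the strand of the gene. Capitals mark uninterrupted runs of at least 5 C or T bases that begin and end inside the stretch, and a run that reaches either edge, as at the left of SNHG7, is left in lower case.
SNHG1, chr11:62855846-62855895, minus strand: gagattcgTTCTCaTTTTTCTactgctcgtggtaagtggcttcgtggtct
SNHG5, chr6:85678694-85678743, minus strand: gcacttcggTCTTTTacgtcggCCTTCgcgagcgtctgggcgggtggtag
SNHG7, chr9:136728145-136728194, minus strand: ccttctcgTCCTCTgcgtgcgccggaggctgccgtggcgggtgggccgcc
SNHG8, chr4:118278752-118278801, plus strand: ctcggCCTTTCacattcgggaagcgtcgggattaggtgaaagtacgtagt
SNHG12, chr1:28581834-28581883, minus strand: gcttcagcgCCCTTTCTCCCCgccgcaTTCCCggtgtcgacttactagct
GAS5, chr1:173869006-173869055, minus strand: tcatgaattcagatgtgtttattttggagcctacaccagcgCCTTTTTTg
A run of at least 5 pyrimidines covered the first transcribed base in SNHG1, SNHG5, SNHG7, SNHG8 and SNHG12, that is in 5 of the 6 genes searched, which were these 5 and GAS5, without SNHG6. The same was found at 3372 of 35116 annotated promoters (9.6%). The run was 12 bases long in SNHG12, 5 in SNHG1 and 6 in SNHG5, SNHG7 and SNHG8. In each of these genes it began before the annotated start, so the lengths count bases on both sides of the start. In SNHG8 only the last base of the run was transcribed. The annotated start of GAS5 lay outside such a run, and its first run, of 8 bases, began at base 32 of the transcript. A match to the ZTRE consensus on either strand lay within 250 bases before to 50 bases after the start of SNHG5 and SNHG8, 2 of 6 genes, against 7808 of the 35116 promoters (22.2%). Such a match is a description of letters and not a binding site.

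Levels are given as log2 of the background-corrected, quantile normalized intensity. The hybridization efficiency of each probe is its own, so a level is compared only with the same probe on other arrays. Between 14454 and 16167 probes were detected per array. Of the 12 arrays, 7 had their closest relation in levels with an array of their own group. ZNF658 siRNA 1 replicate 3 and control siRNA 1 replicate 1 were closest to each other, and ZNF658 siRNA 2 replicates 2 and 3 and control siRNA 2 replicate 3 were closest to an array of the other group of their pair. The probe for 18S ribosomal RNA (RNA18SN5) was between 13.99 and 14.74 on control siRNA 1 replicates 2 and 3 and ZNF658 siRNA 2 replicates 1 and 2, and between 9.57 and 11.56 on the other 8 arrays. Among 12 markers of enterocytes and colon carcinoma, 7 were named on the array and 6 were tested, with EPCAM and CDX2 detected throughout. VIL1, LGALS4, HNF4A and FABP1 were among those not named. The summed level of the list lay between 13.77 and 14.14 on every array. Of 9 trophoblast markers 7 were tested, and 5 of these were called lower with control siRNA 2 than with control siRNA 1. Fibroblast markers (3 tested of 7) and a leukocyte marker (1 of 4) gave no call, and no squamous marker was named.

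With ZNF658 siRNA 1, 5 of the 6 host genes had a higher mean level than with control siRNA 1, and with ZNF658 siRNA 2 all 6 had a lower mean level than with control siRNA 2. None of these differences passed the test. The sign turned when 1 array was left out for SNHG1 (−0.023 without ZNF658 siRNA 1 replicate 3) and SNHG6 (−0.020 without control siRNA 1 replicate 3) with ZNF658 siRNA 1, and for SNHG7 with ZNF658 siRNA 2. For 4 of the 6 genes the groups that stood furthest apart were the controls. SNHG5, SNHG6, SNHG8 and SNHG12 were lowest with control siRNA 1 and highest or nearly highest with control siRNA 2. The exceptions were SNHG1, which was lowest with ZNF658 siRNA 2 and highest with ZNF658 siRNA 1, and SNHG7, whose brightest probe was lowest with ZNF658 siRNA 1. SNHG7 probe ILMN_3233205 was instead lowest with control siRNA 1 (mean 7.34) and highest with control siRNA 2 (mean 7.88). Each group overlapped the next in the order of means for SNHG1, and also for SNHG8 and SNHG12.

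**Figure D1:**
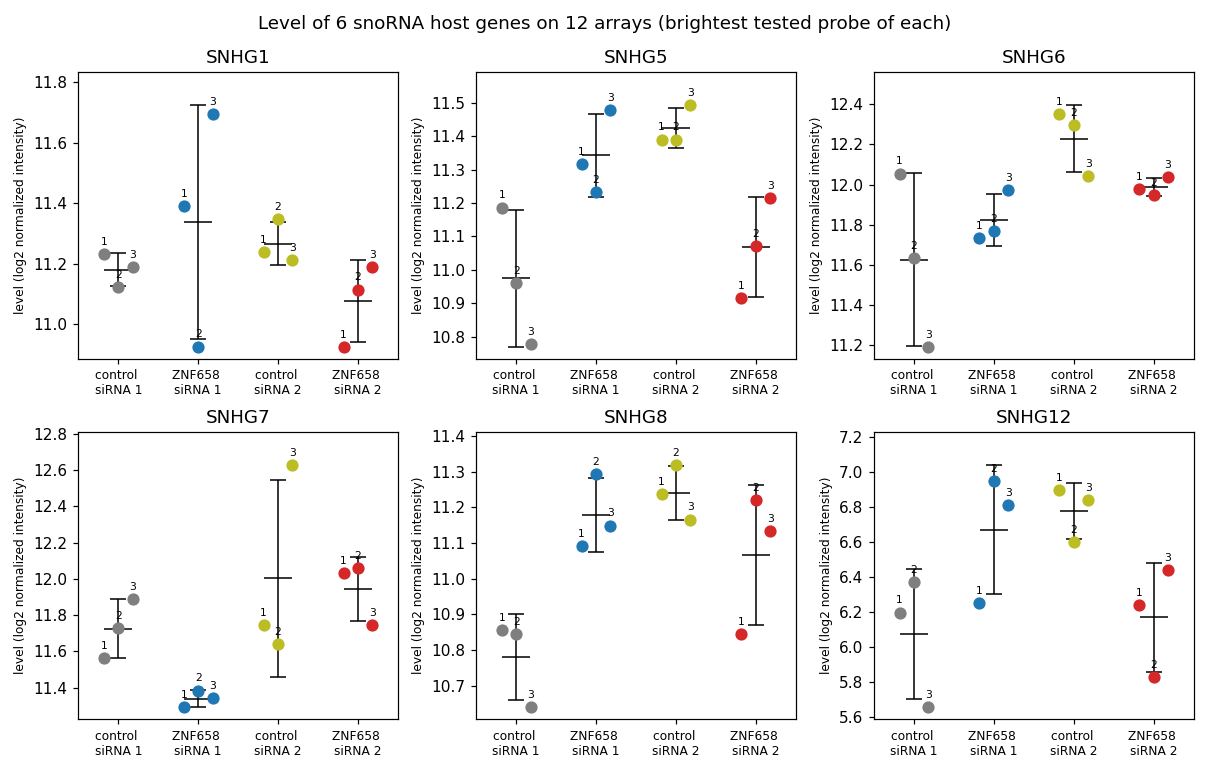
Log2 level of the brightest probe of each of the 6 host genes on all 12 arrays, with 1 panel per gene, 1 point per array numbered by replicate, and lines for the mean and SD of each group of 3. In the panels of SNHG5, SNHG8 and SNHG12 every control siRNA 2 array lies above every control siRNA 1 array, and in the panel of SNHG7 the ZNF658 siRNA 1 arrays lie between 11.29 and 11.38, below all others.

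SNHG5 carries SNORD50A and SNORD50B, guides of ribosomal RNA methylation, in its introns. Its brighter probe (ILMN_2200659) read 11.32, 11.23 and 11.48 with ZNF658 siRNA 1 and 11.19, 10.96 and 10.78 with control siRNA 1. It read 10.92, 11.07 and 11.22 with ZNF658 siRNA 2 and 11.39, 11.39 and 11.49 with control siRNA 2. The treated arrays were all above their controls in the first pair and all below their controls in the other. The log2 fold change was 0.37 (SE 0.14, limma adjusted P = 0.685) with ZNF658 siRNA 1 and −0.36 (SE 0.14, adjusted P = 0.837) with ZNF658 siRNA 2. SNHG5 is in the study's own list of changed genes, so its values are not independent evidence for that list.

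The other SNHG5 probe (ILMN_1653794) gave 10.84, 11.20 and 10.37 with ZNF658 siRNA 1 and 10.33, 10.14 and 9.82 with control siRNA 1, again without overlap. With ZNF658 siRNA 2 it gave 10.39, 10.48 and 10.38, and with control siRNA 2 it gave 10.85, 10.80 and 10.41, ranges that overlap. Its log2 fold change of 0.71 (95% interval 0.27 to 1.14, adjusted P = 0.685) with ZNF658 siRNA 1 was the largest among the 9 probes in that comparison. With ZNF658 siRNA 2 the change was −0.27 (SE 0.20, adjusted P = 0.94). Across the 12 arrays the probes of SNHG5 had a correlation of 0.57, so the gene was read by a pair of probes that share their direction in both comparisons and differ in size.

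SNHG8 carries SNORA24, a guide of pseudouridylation. Its levels were 11.09, 11.29 and 11.15 with ZNF658 siRNA 1 and 10.86, 10.84 and 10.64 with control siRNA 1. They were 10.85, 11.22 and 11.13 with ZNF658 siRNA 2 and 11.24, 11.32 and 11.17 with control siRNA 2. Control siRNA 1 was below the other groups on all but 1 array, ZNF658 siRNA 2 replicate 1, which lay between its arrays. The log2 fold change with ZNF658 siRNA 1 was 0.40 (95% interval 0.10 to 0.69, adjusted P = 0.685), and with ZNF658 siRNA 2 it was −0.17 (95% interval −0.47 to 0.12, adjusted P = 0.943).

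SNHG12 carries SNORD99 together with the pseudouridylation guides SNORA44, SNORA61 and SNORA16A. It was the dimmest of the probes relative to background, detected on 10 of 12 arrays, with 1 array of control siRNA 1 and 1 of ZNF658 siRNA 2 below the detection limit. The levels were 6.25, 6.95 and 6.81 with ZNF658 siRNA 1, 6.19, 6.37 and 5.65 with control siRNA 1, 6.24, 5.83 and 6.44 with ZNF658 siRNA 2, and 6.90, 6.60 and 6.84 with control siRNA 2. The first pair overlapped and the other did not. The log2 fold changes were 0.60 (95% interval 0.05 to 1.14, adjusted P = 0.685) and −0.61 (95% interval −1.16 to −0.06, adjusted P = 0.853), the widest intervals among the brightest probes.

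SNHG6 carries SNORD87, a methylation guide. It read 11.73, 11.77 and 11.97 with ZNF658 siRNA 1 and 12.06, 11.63 and 11.19 with control siRNA 1, where the control arrays spanned the treated ones. It read 11.98, 11.95 and 12.04 with ZNF658 siRNA 2 and 12.35, 12.29 and 12.04 with control siRNA 2, without overlap but with the nearest arrays both at 12.04 after rounding. The log2 fold changes were 0.20 (95% interval −0.18 to 0.58, adjusted P = 0.819) and −0.24 (95% interval −0.62 to 0.14, adjusted P = 0.94).

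SNHG1 is the host of SNORD22 and of a cluster from SNORD25 to SNORD31. Its levels were 11.39, 10.93 and 11.69 with ZNF658 siRNA 1, 11.23, 11.12 and 11.19 with control siRNA 1, 10.93, 11.12 and 11.19 with ZNF658 siRNA 2, and 11.24, 11.35 and 11.21 with control siRNA 2. ZNF658 siRNA 1 and control siRNA 1 overlapped, and the ZNF658 siRNA 2 arrays were all below those of control siRNA 2. The highest and one of the lowest arrays belonged to the same group, ZNF658 siRNA 1, whose SD was 0.39 against 0.05 to 0.14 in the other groups. The log2 fold changes were 0.16 (95% interval −0.20 to 0.52, adjusted P = 0.846) and −0.19 (95% interval −0.55 to 0.17, adjusted P = 0.958).

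SNHG7, host of the SNORA17 copies and SNORA43, went its own way. The brightest of its probes (ILMN_3227023) read 11.29, 11.38 and 11.34 with ZNF658 siRNA 1 and 11.56, 11.73 and 11.89 with control siRNA 1. It read 12.03, 12.06 and 11.74 with ZNF658 siRNA 2 and 11.74, 11.64 and 12.63 with control siRNA 2, where replicate 3 stood above the rest. The treated arrays were all below the controls in the first pair (log2 fold change −0.39, 95% interval −0.83 to 0.06, adjusted P = 0.71) and overlapped them in the other (−0.06, 95% interval −0.50 to 0.39, adjusted P = 0.999).

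The 3 probes of SNHG7 did not share a direction with ZNF658 siRNA 1. ILMN_3233229 followed the brightest probe across arrays (r = 0.86) and had log2 fold changes of −0.21 and −0.02. ILMN_3233205 did so less (r = 0.34), and its levels were 7.77, 7.44 and 7.80 with ZNF658 siRNA 1 and 7.30, 7.23 and 7.50 with control siRNA 1 (log2 fold change 0.33, SE 0.19, adjusted P = 0.72). With ZNF658 siRNA 2 it had −0.16 (adjusted P = 0.987). The direction given for SNHG7 with ZNF658 siRNA 1 therefore depends on the probe, and which transcripts each probe reads was not tested.

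For ZNF658 siRNA 1, 0 of the 9 probes were called at an adjusted P value under 0.05 with a change of at least 1.2-fold, as were 2 of all 14804 probes (0.0135%). At an unadjusted P value under 0.05, 4 probes of 3 genes (both of SNHG5, SNHG8 and SNHG12) were higher, against 4.32% of all probes. The groups did not overlap for 3 probes that were higher, against 8.19% of all probes, and for 1 that was lower, the brightest of SNHG7, against 8.46%. The median log2 fold change of the 6 genes was 0.28, and that of all probes tested was −0.01.

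For ZNF658 siRNA 2, 0 of the 9 probes were called, and 0 of all probes (0%). The brighter SNHG5 probe and SNHG12 were lower at an unadjusted P value under 0.05, against 2.36% of all probes. SNHG1, SNHG5, SNHG6 and SNHG12 had treated arrays wholly below the controls, 4 probes, against 4.49% of all probes. The median log2 fold change of the 6 genes was −0.21, and all 6 were below 0. For SNHG7 this sign rested on single arrays, since its value was 0.25 without control siRNA 2 replicate 3 and 0.044 without ZNF658 siRNA 2 replicate 3.

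Averaged over both siRNAs, 0 of the 9 probes were called (0.00675% of all probes) and 0 had an unadjusted P value under 0.05 (2.51% of all probes). The 9 values ran from −0.22 for the brightest SNHG7 probe to 0.22 for SNHG5 probe ILMN_1653794, with adjusted P values between 0.997 and 0.998. The difference between the siRNA effects, siRNA 2 minus siRNA 1, takes each siRNA against its own control. It therefore also holds the difference between the controls, and the parts cannot be told apart in it. The difference between the effects was −0.72 (SE 0.20, adjusted P = 0.255) for the brighter SNHG5 probe and −0.97 (SE 0.29, adjusted P = 0.281) for the other. It was −1.21 (SE 0.36, adjusted P = 0.281) for SNHG12 and −0.57 (SE 0.20, adjusted P = 0.335) for SNHG8. These 4 probes were lower in the difference at an unadjusted P value under 0.05, against 5.78% of all probes tested. Of the 9 probes 0 were called, as of all probes (0%). The median difference was −0.50 over the 6 genes and 0.01 over all probes, and only SNHG7 was above 0, at 0.33 (SE 0.29) for its brightest probe. Its other probes were at 0.20 (SE 0.35, ILMN_3233229) and −0.49 (SE 0.27, ILMN_3233205).

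**Figure D2:**
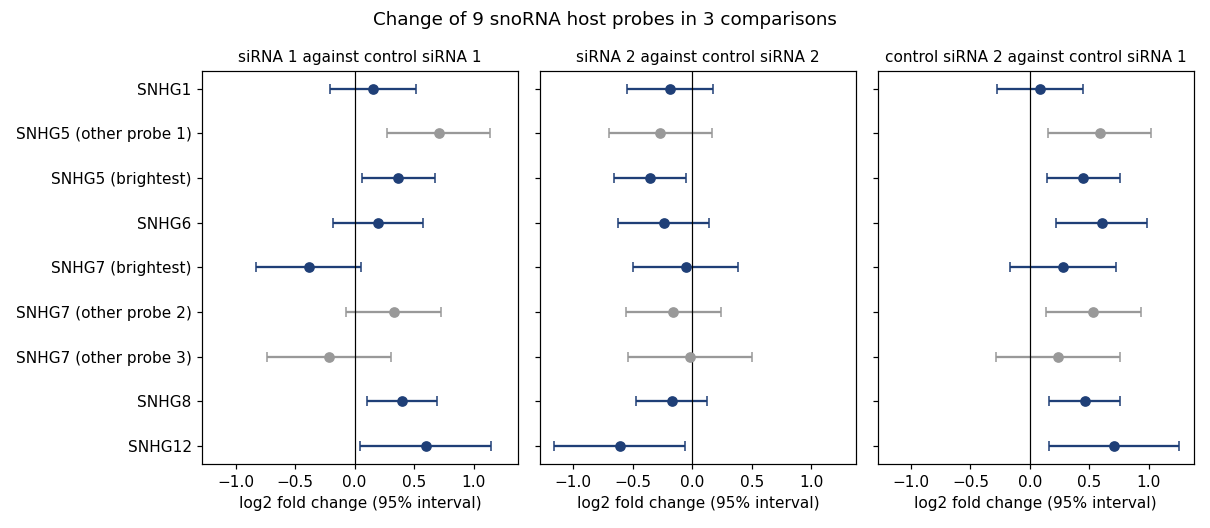
Log2 fold change of each of the 9 host gene probes with ZNF658 siRNA 1, with ZNF658 siRNA 2 and between the controls, with bars for the 95% interval of the limma fit, the brightest probe of a gene in blue and other probes in grey. With ZNF658 siRNA 1 the points run from −0.39 to 0.71 and with ZNF658 siRNA 2 from −0.61 to −0.02.

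Both ZNF658 comparisons contain a control group, and the controls were compared with each other in the same fit. Set against control siRNA 1, control siRNA 2 gave log2 differences of 0.59 (SE 0.20, adjusted P = 0.178) and 0.45 (SE 0.14, adjusted P = 0.137) for the probes of SNHG5. The values were 0.60 (95% interval 0.22 to 0.98, adjusted P = 0.109) for SNHG6 and 0.46 (95% interval 0.16 to 0.76, adjusted P = 0.116) for SNHG8. SNHG12 had 0.71 (95% interval 0.16 to 1.25, adjusted P = 0.198), and SNHG7 probe ILMN_3233205 had 0.53 (SE 0.19, adjusted P = 0.182). SNHG1 differed by 0.08 (SE 0.17) and the brightest SNHG7 probe by 0.28 (SE 0.21).

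None of the 9 probes was called between the controls, while 301 of all probes were (2.03%), 75 higher and 226 lower with control siRNA 2. Of the 9 probes, 6 from 5 genes were higher at an unadjusted P value under 0.05, against 6.87% of all probes. The controls did not overlap for 5 probes of 4 genes, all higher with control siRNA 2, against 9.22% of all probes. The median over the 6 genes was 0.45, against 0.01 over all probes, and each of the 6 was above 0, though SNHG7 was at −0.035 without control siRNA 2 replicate 3. The comparison of the controls shares control siRNA 1 with the ZNF658 siRNA 1 comparison and control siRNA 2 with the ZNF658 siRNA 2 comparison. For SNHG5, SNHG8 and SNHG12 the mean levels with ZNF658 siRNA 1 (11.34, 11.18 and 6.67) were nearer to those of control siRNA 2 (11.42, 11.24 and 6.78) than to those of their own control (10.97, 10.78 and 6.07).

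The array with the lowest host gene levels was control siRNA 1 replicate 3, whose median deviation from the gene means was −0.43. The other arrays of that group were at −0.10 and −0.16. The 3 arrays of control siRNA 2 were at 0.18, 0.18 and 0.21, the ZNF658 siRNA 1 arrays at −0.07, −0.06 and 0.18, and the ZNF658 siRNA 2 arrays at −0.20, −0.03 and 0.02. Control siRNA 2 was thus above control siRNA 1 on every array and close to ZNF658 siRNA 1 replicate 3.

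The 18S ribosomal RNA probe varied within groups as well as between them, and no comparison of it passed the test. Labelling with this kind of kit starts from poly(A) tails, and whether the probe follows the amount of 18S ribosomal RNA in the cells was not tested. The probe read 10.74, 14.55 and 14.74 with control siRNA 1, 9.58, 9.57 and 10.70 with ZNF658 siRNA 1, 13.99, 14.55 and 9.88 with ZNF658 siRNA 2, and 10.21, 10.06 and 11.56 with control siRNA 2. The 4 arrays at or above 13.99 had host gene deviations between −0.43 and −0.03, all below 0, whereas the other 8 lay between −0.10 and 0.21. Its log2 fold change was −3.40 (SE 1.07, adjusted P = 0.685) with ZNF658 siRNA 1 and 2.20 (SE 1.07, adjusted P = 0.895) with ZNF658 siRNA 2, opposite in sign to the host gene median in both. The trophoblast markers moved between the controls too, with a summed level of 13.28 to 13.33 with control siRNA 1 and 11.88 to 12.31 with control siRNA 2, while ZNF658 siRNA 1 (12.89 to 13.24) and ZNF658 siRNA 2 (11.96 to 12.10) lay near the control of their own supplier. The part of either in the host gene levels was not tested, and fewer cells of a kind cannot be told apart from less RNA per cell.

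**Figure D3:**
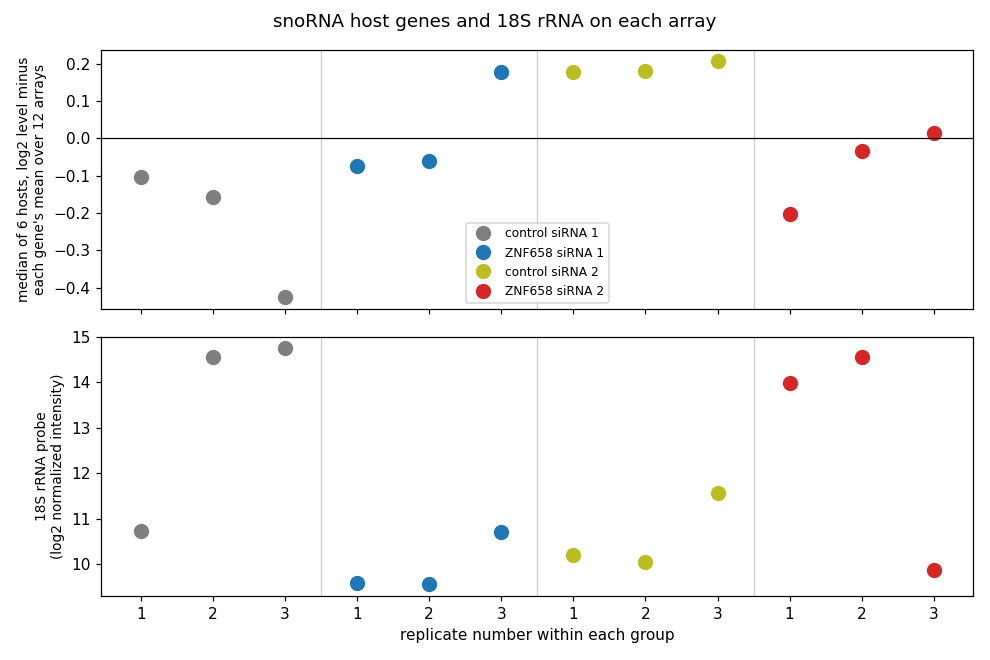
For each of the 12 arrays, by group and replicate number on the x axis, the upper panel plots the median log2 deviation of the 6 host genes from their means and the lower panel the log2 level of the 18S ribosomal RNA probe. The 4 arrays with 18S at or above 13.99 lie below 0 in the upper panel, as do 3 of the other 8, and the 3 control siRNA 2 arrays lie at 0.18 to 0.21.

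Some calls depended on the arrays kept or on their weights. A setting chosen after the data were seen left out ZNF658 siRNA 1 replicate 3 and control siRNA 1 replicate 1. It also left out both arrays numbered 3 of the siRNA 2 pair. There, 2 of the 9 probes were called with ZNF658 siRNA 1, as were 945 of all 14804. Each array left out was closest in levels to an array of the other group of its pair. Because the choice followed the data, the setting is no test and its P values are not given. In it, SNHG5 probe ILMN_1653794 rose by 1.04 on the log2 scale and the brightest SNHG7 probe fell by 0.47. With all arrays these probes were at 0.71 and −0.39 (limma adjusted P = 0.685 and 0.71). Array quality weights, which give less weight to arrays far from their group, called the same probes, at 0.80 (adjusted P = 0.00917) and −0.42 (adjusted P = 0.0485). Under those weights 841 of all probes were called with ZNF658 siRNA 1. With ZNF658 siRNA 2, 0 of the 9 probes were called without those 4 arrays, against 1239 of all probes. Under the weights it was 0 of the 9, against 600. Between the controls, SNHG6 was called when control siRNA 1 replicate 1 was left out (0.82, adjusted P = 0.0275, with 171 calls among all probes) or control siRNA 2 replicate 3 was left out (0.70, adjusted P = 0.0444, with 572).

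Other non-coding hosts of small nucleolar RNAs were compared as a list of 17 genes, of which 12 were named and 9 tested. The list gave 0 calls with either ZNF658 siRNA, with a median log2 fold change of 0.07 (7 of 9 above 0) and −0.13 (2 of 9 above 0). Between the controls its median was 0.29, and 2 genes were called, both higher with control siRNA 2. ZFAS1, the host of SNORD12 and its copies, read 12.96 to 13.17 with control siRNA 2 and 12.04 to 12.45 with control siRNA 1, a difference of 0.79 (SE 0.14, adjusted P = 0.00668), and remained called when any 1 array was left out. SNHG9, the host of SNORA78, read 8.98 to 9.46 against 7.58 to 8.64, a difference of 1.00 (SE 0.24, adjusted P = 0.0434), and its adjusted P value ran from 0.0185 to 0.205 when 1 array was left out, past 0.05 for 10 of the 12 arrays.

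ZFAS1 had 0.52 (adjusted P = 0.685) with ZNF658 siRNA 1 and −0.50 (adjusted P = 0.818) with ZNF658 siRNA 2, and in both the groups did not overlap. SNHG9 had 0.40 (adjusted P = 0.724) and −0.88 (adjusted P = 0.818). EPB41L4A-AS1 had 0.46 (adjusted P = 0.685) and −0.13, while SNHG11 had −0.34 and 0.06. ZFAS1, SNHG9 and EPB41L4A-AS1 thus have the signs seen in SNHG5, SNHG8 and SNHG12, with the same control arrays in each comparison.

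Protein-coding hosts outside the ribosomal proteins (27 tested of 30) had medians of −0.02 with ZNF658 siRNA 1, −0.06 with ZNF658 siRNA 2 and 0.08 between the controls, with 0 calls. TAF1D, a subunit of the RNA polymerase I factor SL1, read 8.65 to 9.45 with ZNF658 siRNA 1 and 7.98 to 8.43 with control siRNA 1 (log2 fold change 1.02, SE 0.27, adjusted P = 0.685), and had −0.08 with ZNF658 siRNA 2. It is also in the study's own list. CCAR1, a regulator of the cell cycle and apoptosis, had 0.81 and −0.47, TCP1, a subunit of the cytosolic chaperonin, had 0.59 and −0.41, and RNF149, a ubiquitin ligase, had 0.05 and 0.48, none of them called. The ribosomal protein genes that host small nucleolar RNAs (19 tested of 23) are the classical TOP genes, and their medians were 0.03, −0.08 and −0.02, with 0 calls. RPL23 had 0.33 and −0.18, RPL32 had 0.29 and −0.15, RPLP2 had −0.28 and −0.11, and RPL21 had −0.08 and 0.21.

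**Figure D4:**
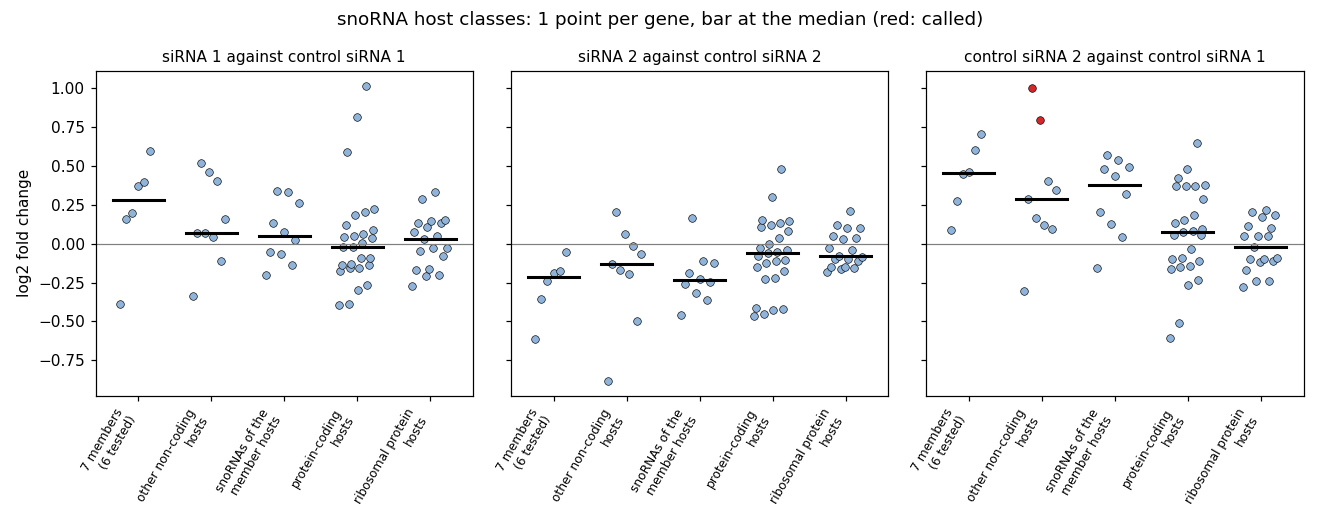
Log2 fold changes of single genes (y axis), by comparison, for the 6 host genes described here, the small nucleolar RNAs of the 7 genes and 3 other classes of host, with a bar at the median of each class and called genes (ZFAS1 and SNHG9) in red. Between the controls the medians are 0.45 for the 6 genes, 0.29 for the other non-coding hosts, 0.08 for the protein-coding hosts and −0.02 for the ribosomal protein hosts.

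Of 28 small nucleolar RNAs carried by the 7 genes, 15 were named and 10 tested, with 0 calls in each comparison. Their median log2 fold change was 0.05 with ZNF658 siRNA 1, −0.24 with ZNF658 siRNA 2 (1 of 10 above 0) and 0.38 between the controls (9 of 10 above 0). SNORD80, from an intron of GAS5, had 0.33 (adjusted P = 0.749), −0.36 (adjusted P = 0.92) and 0.54 (adjusted P = 0.242), the only reading tied to that gene among those named here. SNORD22, from SNHG1, had 0.34, −0.11 and 0.43, SNORD25, also from SNHG1, had −0.14, −0.32 and 0.20, and SNORD99, from SNHG12, had 0.26, −0.46 and 0.13. Labelling with this kind of kit starts from poly(A) tails, which mature small nucleolar RNAs lack, and which RNA these probes read was not tested.

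The machinery around the host genes gave no call in any comparison. Proteins that form or assemble the particles (18 tested of 18) had medians of −0.05, −0.01 and 0.07. RUVBL1, a helicase of the assembly complex, had −0.46 with ZNF658 siRNA 1, NUFIP1 had 0.41 and ZNHIT6, another assembly factor, had 0.34, and WRAP53, a protein of Cajal bodies, had 0.44 with ZNF658 siRNA 2. Nonsense-mediated decay factors (13 tested of 18) had medians of −0.11, 0.04 and −0.04. UPF1, the central helicase of that pathway, had −0.35 and SMG9, a subunit of the kinase complex acting on it, had −0.42 with ZNF658 siRNA 1, where CASC3 had −0.29 and SMG1 had −0.26. Proteins that bind TOP mRNAs or control their translation (11 tested of 12) had medians of −0.02, −0.08 and 0.02. EIF4E, the cap-binding protein, had 0.46 with ZNF658 siRNA 1 and −0.53 with ZNF658 siRNA 2, and RPTOR, the scaffold of mTOR complex 1, had −0.54 with ZNF658 siRNA 1. EIF4EBP2 and EIF4EBP1, which bind EIF4E, had −0.33 with ZNF658 siRNA 1 and −0.35 with ZNF658 siRNA 2, respectively.

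Across the 12 arrays SNHG5 varied most like SNHG12 (r = 0.78) and SNHG8 (r = 0.77) among the 6 genes, and SNHG6 like SNHG5 (0.68) and SNHG8 (0.67). SNHG7 had correlations of −0.36 to 0.07 with the other 5. These values describe 12 arrays that share 4 groups and 1 normalization. Among 9197 other named genes, those most like SNHG5 were SNORD104 (0.90), MTLN (0.89) and NDUFA3 (0.88). For SNHG8 they were ATP5MF (0.94), PRELID3A (0.93) and KIFBP (0.91), and for SNHG12 COX17 (0.91), FASTKD2 (0.88) and RBX1 (0.84). SNHG6 was most like H4C3 (0.96), SERF1B (0.95) and CKLF (0.93), SNHG7 like BIN1 (0.98), CDH3 (0.97) and NAT14 (0.96), and SNHG1 like SPATA24, ACCS and SLC25A39 (0.80 to 0.78).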

How the data were processed

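Human Caco-2 cells were profiled on 12 Illumina HT12 bead arrays. One deposited table holds, for 47231 probes, the mean intensity that the authors exported from BeadStudio without normalization, and a detection P value that the authors deposited beside it. The other holds log2 values that the authors deposited after normalization for 21105 probes. The methods name variance stabilizing normalization, and the labels name lumi, version not given. No column of per-sample values was left unused.

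Background correction and quantile normalization of the intensities used neqc (offset 16, negative controls inferred from detection P values) in limma 3.58.1 and R 4.3.3, which narrows differences between arrays in overall signal. The fit took the 14804 probes whose detection P values stayed below 0.01 throughout some group of 3 arrays, and 11868 of them carry a gene name. Groups came from the labels, which give each ZNF658 siRNA a control of its supplier, whereas the supplement lists just 1 control, from Dharmacon. One limma fit with trend covered all 12 arrays, and P values were adjusted over all probes (Benjamini-Hochberg). A call needs an adjusted P value under 0.05 and 1.2-fold. A gene is represented by its brightest probe. The fit was tested on simulated data.

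The members and lists were chosen with earlier results of these data known. Named from each list were called genes and up to 4 of the largest changes with either siRNA. The most similar genes were the 3 of highest correlation. The number of arrays, 3 per group, limits the precision, and an exact permutation of 3 against 3 cannot give a P value below 0.1. Sequences are from RefSeq (GRCh38.p14).

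Alternatives covered the background correction, normalization, filter, pairing, weights, groups in the fit, controls, test, minimum fold and each array left out.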

Additional observations from a re-analysis of the deposited data

How the results depend on the processing

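No host gene was called with either ZNF658 siRNA under the deposited log2 values, no background correction, other filters, the rank product method or no minimum fold. Scaling to the median in place of quantiles moved the medians of the 6 genes to 0.51 (ZNF658 siRNA 1), −0.39 (ZNF658 siRNA 2), −0.91 (difference) and 0.66 (controls), where the median of all probes itself moved to 0.18, −0.11, −0.29 and 0.17. With all 6 control arrays as 1 group the medians were 0.13, −0.038 and −0.19 (difference). Signs turned there for SNHG6 with both siRNAs (−0.10 and 0.061) and for SNHG7 (0.082) and SNHG8 (0.056) with ZNF658 siRNA 2. Array quality weights (0.156 to 2.4, the lowest for control siRNA 2 replicate 3) called 2 probes with ZNF658 siRNA 1, 4 in the difference and 4 between the controls, where all-probe calls were 841, 2729 and 2516. Leaving out both siRNA 2 pair arrays numbered 3, chosen after seeing the data, called 5 in the difference (1427 of all probes) and 2 between the controls (819). Leaving out ZNF658 siRNA 1 replicate 3 and control siRNA 1 replicate 1, also chosen after seeing the data, called 1 between the controls (137). Leaving out all 4 called 2 with ZNF658 siRNA 1 (945), 7 in the difference (2764) and 4 between the controls (1820). The median difference was then −0.70. Counts from arrays left out after seeing the data are descriptions and not tests. The called differences did not share a direction. SNHG7 probes ILMN_3227023 and ILMN_3233229 were above 0 (0.82 and 0.70 without all 4 arrays), and the other called probes were below 0. In the difference under the weights, ILMN_3227023 was the only SNHG7 probe called. With ZNF658 siRNA 2, 0 of the 9 probes were called under the weights, without both arrays numbered 3 or without all 4 arrays. All-probe calls there were 600, 268 and 1239. The cause of these shifts in calls was not tested. With 1 array left out, the medians ran from 0.21 to 0.42 (ZNF658 siRNA 1), −0.27 to −0.18 (ZNF658 siRNA 2), −0.08 to 0.04 (mean), −0.63 to −0.43 (difference) and 0.37 to 0.53 (controls), and calls from 0 to 0, except 0 to 1 between the controls. The median of the mean effect changed sign under 7 of 23 settings. Arrays of the same number did not deviate together (mean r −0.04 over 18 pairs, against 0.01 over 36 of different number), and with the replicate block 0 of the 9 probes were called in each comparison. The fit of only the compared groups was not applicable to the mean and the difference, 1 control group not to the control comparison, and the rank product method was not run for the difference.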
